A study of Mus musculus with 3 samples.

Results

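RNA of 4 mouse genes of immunoglobulin A (IgA) transport was followed through single-nucleus libraries of the submandibular gland, a major salivary gland. These are Pigr, the receptor that carries polymeric IgA across the epithelium, and Jchain, Igha and Igkc, which encode its cargo. They were found by symbol among the 32285 genes of the deposited feature lists, where each symbol occurred once, and all 4 were detected in every library. The 4 were chosen with their levels in these libraries known, so their differences between groups are given as descriptions of 3 libraries, and no test stands behind them. The study examined cell identities and signalling pathways in the gland across 3 treatment groups of wild-type mice, with 1 library each. Irradiated + pilocarpine glands came from irradiated mice given pilocarpine, a muscarinic agonist that stimulates saliva secretion, from day 30 to day 90. Irradiated + saline glands came from irradiated mice given saline. Non-irradiated glands carry the label of no treatment, which names no saline, so irradiation and saline cannot be told apart where these glands are the comparison. The titles of both irradiated groups give 90 days after irradiation, and the extraction protocol gives 93 days. The labels used here do not give the strain, age, sex or number of mice, the radiation dose, or the hour at which glands were taken.

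The polymeric immunoglobulin receptor (pIgR, encoded by Pigr) stands on the basolateral face of glandular epithelial cells. There it binds dimeric IgA, whose chains are held together by the joining chain (Jchain) and which plasma cells in the gland's stroma release. The complex crosses the cell in vesicles and is cut at the apical face, which releases IgA into saliva with the receptor's outer part attached as secretory component. Since each receptor molecule is used once, the receptor protein has to be made anew continually. Interferon-gamma, tumour necrosis factor and other cytokines are known to raise Pigr RNA in epithelial cells.

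Pigr lies on the forward strand of chromosome 1 at 130826684 to 130852249 (GRCm38, GENCODE annotation), a span of 25566 bases with 11 exons in its full-length transcript, and no other gene of the feature list overlaps it. Jchain lies on the reverse strand of chromosome 5 at 88519809 to 88527891, Igha, the constant region of the IgA heavy chain, on the reverse strand of chromosome 12 at 113254830 to 113260236, and Igkc, the constant region of the kappa light chain, on the forward strand of chromosome 6 at 70726435 to 70726966. A predicted gene on the same strand overlaps Igkc, so reads in the overlap cannot always be traced to 1 gene. The bases before the Pigr start are shown because Pigr UMIs are set beside those of clock genes below, whose proteins bind E-boxes, and the start of exon 1 because Pigr is set beside interferon-induced genes. Both come from the RefSeq promoter table for GRCm38.p6, on the forward strand, from chr1:130826434-130826683 and chr1:130826684-130826713. Capitals mark the E-box CACGTG in the first and, in the second, TTTCNNTT, the reverse strand of the interferon-regulatory element AANNGAAA.
Pigr upstream: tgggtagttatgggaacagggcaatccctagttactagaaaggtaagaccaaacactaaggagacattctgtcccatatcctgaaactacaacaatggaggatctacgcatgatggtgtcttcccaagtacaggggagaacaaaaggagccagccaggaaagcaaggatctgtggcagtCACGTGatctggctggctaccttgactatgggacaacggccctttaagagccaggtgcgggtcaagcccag
Pigr exon 1: aaaacagTTTCAGTTttgacaatagtcacc
The E-box lay at bases -71 to -66 from the start. The letters CACGTG occurred in 7.15% of 32817 promoter windows of 300 bases. The element in exon 1 lay at bases 8 to 15, and AANNGAAA on either strand occurred in 23.9% of the windows. On both strands, the D-box TTANNTAA and the nuclear receptor element AGGTCA had no match in the Pigr window, and they occurred in 5.997% and 16.3% of all windows. A palindromic STAT element had no match either and occurred in 6.94% of windows. The Jchain window held AANNGAAA at -86 to -79 and AGGTCA at -243 to -238, with no CACGTG. A match is a match of letters only.

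Molecules were counted by their unique molecular identifiers (UMIs). Summed over a set of nuclei, a gene's UMIs are given as CPM, their rate among all UMIs of those nuclei, with an exact Poisson interval. For a ratio of CPM values the interval is exact and conditional on their sum, and for a share of nuclei it is that of Clopper and Pearson. All are 95% intervals. They cover counting error only, and nuclei of a library are not replicates. The nuclei used numbered 8376 in the irradiated + pilocarpine library, 8622 in the irradiated + saline one and 10635 in the non-irradiated library, with 33358056, 29177212 and 25566617 UMIs and a median of 2048, 2113 and 1536 UMIs per nucleus, in that order. Between 28 and 33 barcodes were shared by any pair of libraries. The nuclei formed 21 clusters, of which 5 were acinar-like, from the markers of saliva-producing cells, and 6 stayed unnamed. Unnamed cluster 8 held 346, 312 and 353 nuclei of the 3 libraries in the same order but 35.2%, 15.4% and 21.1% of their UMIs. Xist RNA stood at 1179, 1128 and 1085 CPM in the 3 libraries, and Ddx3y, a Y-linked gene, had 2, 0 and 0 UMIs.

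Pigr was lower in both irradiated libraries than in the non-irradiated one. It had 620 UMIs or 18.6 CPM (17.2 to 20.1) in the irradiated + pilocarpine library, 259 UMIs or 8.88 CPM (7.83 to 10.0) in the irradiated + saline library, and 1110 UMIs or 43.4 CPM (40.9 to 46.0) in the non-irradiated library. The 3 intervals did not overlap, and the irradiated + pilocarpine library lay between the others. Pigr stood at 0.204 of the non-irradiated level in the irradiated + saline library (0.178 to 0.234), which is 4.89 times lower. It stood at 2.09 times the irradiated + saline level in the irradiated + pilocarpine library (1.81 to 2.43), and at 0.428 of the non-irradiated level (0.387 to 0.473). These 3 ratios share libraries and are not separate evidence. A Pigr UMI was found in 5.79%, 2.57% and 6.95% of nuclei of the irradiated + pilocarpine, irradiated + saline and non-irradiated libraries, and after thinning each nucleus to 800 UMIs in 1.81%, 0.722% and 3.05%. Most nuclei with Pigr held a single UMI. Several UMIs in a nucleus were mostly a feature of the non-irradiated library among acinar-like nuclei, where 21 nuclei held at least 4, against 3 in irradiated + pilocarpine and 1 in irradiated + saline nuclei.

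Among genes with 10 or more UMIs over a pair of libraries, those past 2-fold on the log2(CPM + 1) scale were few. Of 19421 such genes, 0.242% were lower and 1.82% higher in irradiated + saline than in non-irradiated nuclei, and 0.0463% had a lower ratio than Pigr. Pigr was lower by more than 2-fold in this comparison, with a log2 ratio of -2.17, and Jchain, Igha and Igkc were not past 2-fold in either direction, with 0.17, 0.07 and 0.78. Between irradiated + pilocarpine and irradiated + saline nuclei, 0.0956% of 19875 genes were higher by 2-fold and 1.12% lower. Igkc was lower past that fold, with a log2 ratio of -1.75, while Igha at -0.99, Jchain at -0.51 and Pigr at 0.99 were not. A ratio above that of Pigr was rare in this comparison, since 99.9% of genes had a lower one. Between irradiated + pilocarpine and non-irradiated nuclei, 1.39% of 19505 genes were higher and 0.236% lower, and Pigr was lower past 2-fold with -1.18. Igha, Igkc and Jchain had -0.92, -0.97 and -0.35 there. The median log2 ratio of all genes lay between 0.02 and 0.07 in the 3 comparisons.

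**Figure D1:**
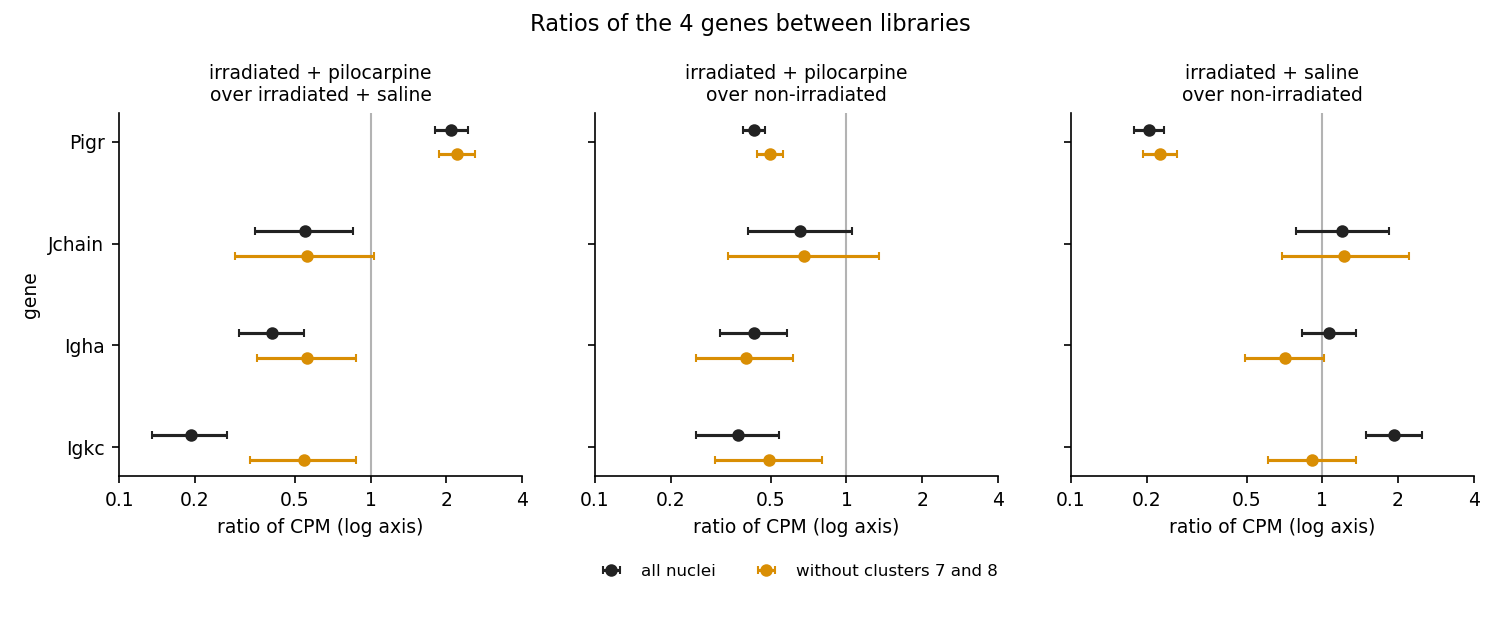
Ratios of CPM of Pigr, Jchain, Igha and Igkc between pairs of libraries on a log axis, with exact conditional 95% intervals for counting error, in all nuclei (black) and without unnamed clusters 7 and 8 (orange). Pigr was 2.09 times as high in irradiated + pilocarpine as in irradiated + saline nuclei, and the Igkc ratio of 0.193 in the same panel moved to 0.544 without both clusters.

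The acinar-like nuclei, of the cells that make primary saliva, held most of the Pigr UMIs outside cluster 8. Pigr had 309 UMIs or 24.7 CPM (22.0 to 27.6) in irradiated + pilocarpine, 152 UMIs or 13.9 CPM (11.8 to 16.3) in irradiated + saline, and 576 UMIs or 49.7 CPM (45.7 to 53.9) in non-irradiated acinar-like nuclei. The order of the libraries was the one seen in all nuclei, again with intervals apart. The ratio was 0.280 between irradiated + saline and non-irradiated nuclei (0.233 to 0.336), 1.77 between irradiated + pilocarpine and irradiated + saline nuclei (1.45 to 2.16), and 0.496 between irradiated + pilocarpine and non-irradiated nuclei (0.431 to 0.571). On the log2(CPM + 1) scale, of which the 2-fold rule speaks, these are -1.76, 0.78 and -0.98. In acinar-like nuclei 1.5% of 15577 genes were higher and 0.867% lower past 2-fold in the first of these comparisons, 0.294% of 15648 higher and 0.141% lower in the second, and 1.25% of 15761 higher and 0.558% lower in the third. The first alone took Pigr past 2-fold.

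Other named classes showed the same low level in the irradiated + saline library, but with few UMIs. Duct-like nuclei, of the granular or striated ducts that modify saliva, held 9 Pigr UMIs or 17.8 CPM in irradiated + pilocarpine, 7 UMIs or 2.24 CPM in irradiated + saline, and 24 UMIs or 25.8 CPM in non-irradiated nuclei. The duct ratio was 0.0868 between irradiated + saline and non-irradiated nuclei (0.0316 to 0.208) and 7.97 between irradiated + pilocarpine and irradiated + saline nuclei (2.64 to 25.2). Its 0.692 between irradiated + pilocarpine and non-irradiated nuclei had an interval from 0.283 to 1.54. Their log2 ratios of -3.05 and 2.54 were past 2-fold, and that of -0.51 was not. Calls were commoner in this smaller class. Of 12436 genes, 4.62% were higher and 4.03% lower in irradiated + saline than in non-irradiated duct-like nuclei. Of 12183 genes, 4.49% were higher and 6.04% lower in irradiated + pilocarpine than in irradiated + saline, and of 10212 genes 3.82% higher and 5.7% lower in irradiated + pilocarpine than in non-irradiated duct-like nuclei. Fibroblast-like nuclei, which should lack the receptor, held 26, 3 and 26 UMIs in irradiated + pilocarpine, irradiated + saline and non-irradiated nuclei, or 16.9, 2.57 and 27.1 CPM. Duct-like over fibroblast-like nuclei, the Pigr ratio was 1.05 (0.434 to 2.32), 0.870 (0.199 to 5.22) and 0.952 (0.523 to 1.73) in the same order. Duct-like Pigr was thus not set apart from the fibroblast-like level in any library, and the duct ratios cannot be read as changes in duct cells. Unnamed cluster 8 scored highest for acinar markers, but 3 of its 10 leading genes, headed by Wnt4, Kcnq1 and Scnn1b, were markers of another type. It held 162, 25 and 228 Pigr UMIs in the same order of libraries. Its ratio between irradiated + saline and non-irradiated nuclei was 0.132 (0.0835 to 0.1995). Whether this cluster holds duct cells was not tested. Myoepithelial-like nuclei, of the contractile cells around the acini, stood at 14.1, 6.29 and 25.1 CPM, and ionocyte-like nuclei at 18.0, 5.05 and 29.4 CPM in the same order. Macrophage-like nuclei ran otherwise, at 8.81, 10.96 and 37.4 CPM from 6, 16 and 14 UMIs.

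Ordered by level, acinar-like nuclei came first of 12 classes in the irradiated + saline library, whose intervals overlapped with those of cycling-like (13.7 CPM), endothelial-like (13.0) and macrophage-like nuclei next below. Unnamed cluster 12, at 1.64 CPM, and duct-like nuclei stood last. In the irradiated + pilocarpine library endothelial-like nuclei (25.5 CPM from 18 UMIs) and acinar-like nuclei came first of 13 within overlapping intervals, and macrophage-like nuclei last. In the non-irradiated library acinar-like nuclei and unnamed clusters 7, 10 and 8 (48.9, 47.6 and 42.2 CPM) stood together at the top of 13 classes within overlapping intervals, and endothelial-like (20.1) and Schwann-like nuclei (20.1) at the bottom.

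**Figure D2:**
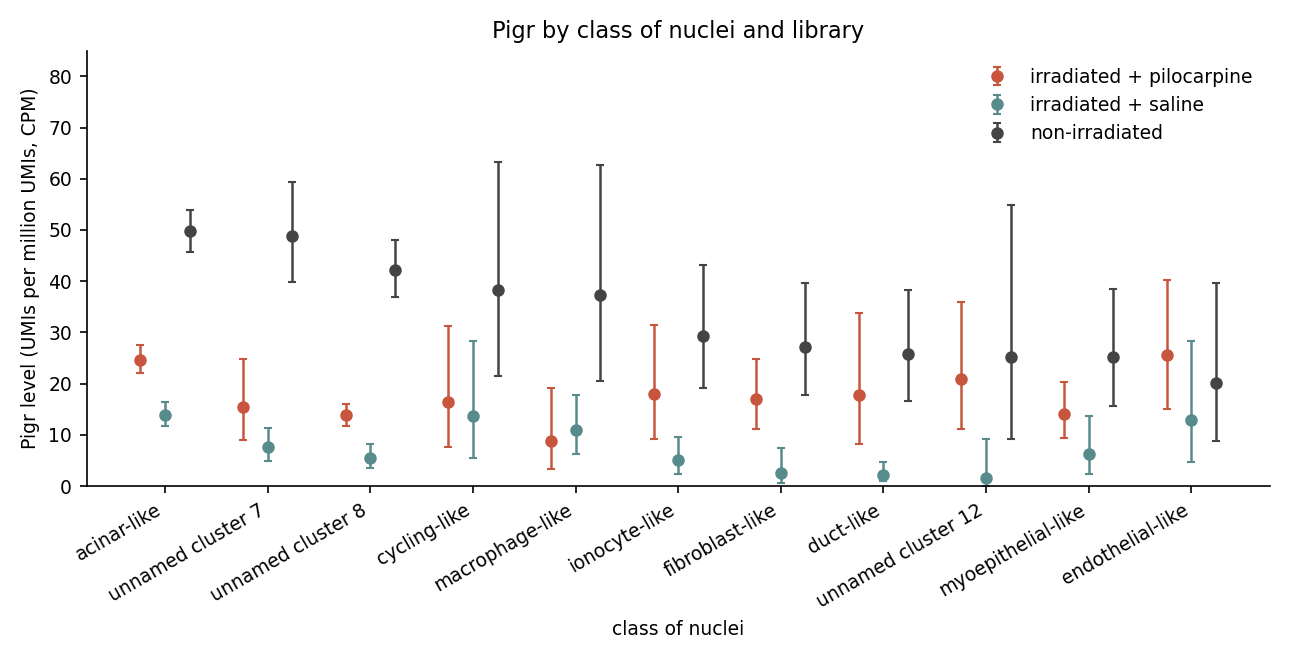
Pigr level in CPM by class of nuclei, for the irradiated + pilocarpine, irradiated + saline and non-irradiated libraries, with exact Poisson 95% intervals for counting error. Classes with at least 100 nuclei in every library are drawn, in order of the non-irradiated level. Acinar-like nuclei stood at 24.7, 13.9 and 49.7 CPM, and the irradiated + saline library was lowest in every class drawn except the macrophage-like nuclei.

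Pigr was also read in classes that should lack it, and the size of this background differed between the libraries. Acinar-like over fibroblast-like nuclei, the ratio was 1.46 (0.976 to 2.27) in the irradiated + pilocarpine library, 5.42 (1.82 to 26.6) in the irradiated + saline library and 1.84 (1.24 to 2.84) in the non-irradiated library. Over endothelial-like nuclei it was 0.967 (0.602 to 1.65), 1.07 (0.482 to 2.97) and 2.47 (1.24 to 5.74). A Pigr UMI was found in 5.62%, 3.68% and 6.23% of acinar-like nuclei, against 3.28%, 0.535% and 3.91% of fibroblast-like and 5.19%, 2.13% and 3.49% of endothelial-like nuclei in the same order of libraries. Median UMIs per nucleus were 2203, 2509 and 1520 in acinar-like, 1531, 1646 and 1278.5 in fibroblast-like, and 1293.5, 1537 and 1312 in endothelial-like nuclei. Thinned to 800 UMIs, the acinar-like shares were 1.95%, 1.11% and 3.25%. Barcodes under the minimum of 500 genes, where free RNA makes up more of the UMIs than in whole nuclei, gave 46.8 CPM (34.1 to 62.6) in the irradiated + pilocarpine library, 15.7 (7.85 to 28.1) in the irradiated + saline library and 37.7 (25.8 to 53.3) in the non-irradiated library. The irradiated + pilocarpine acinar-like level thus lay below that of its own low barcodes, and the levels of acinar-like nuclei and low barcodes had overlapping intervals in both other libraries. With the lower of the fibroblast-like and endothelial-like levels of each library subtracted, the acinar-like log2 ratio between irradiated + pilocarpine and irradiated + saline nuclei turned from 0.78 to -0.50, whereas that between irradiated + saline and non-irradiated nuclei stayed below 0 at -1.30. The level subtracted was fibroblast-like in both irradiated libraries, at 16.9 and 2.57 CPM, and endothelial-like in the non-irradiated library, at 20.1 CPM. That of irradiated + saline nuclei came from 3 UMIs (0.530 to 7.51 CPM), and both ratios depend on the class subtracted. The part of free RNA in the higher Pigr of irradiated + pilocarpine nuclei was not tested further.

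The 5 acinar-like clusters were filled unequally by the libraries. Clusters 1 and 2 held 37.0% and 44.0% of irradiated + pilocarpine acinar-like nuclei, and 57.4% and 28.6% of irradiated + saline ones. Clusters 0 and 4 held 56.1% and 34.5% of the non-irradiated ones. Within each cluster Pigr was lower in irradiated + saline than in non-irradiated nuclei, with ratios of 0.301 (0.0813 to 0.783) in cluster 0, 0.398 (0.226 to 0.755) in cluster 1, 0.338 (0.199 to 0.578) in cluster 2, 0.245 (0.0891 to 0.538) in cluster 4 and 0.355 (0.145 to 0.820) in cluster 15. The ratio of 0.280 over the whole class lay within this range. Irradiated + pilocarpine over irradiated + saline nuclei gave 2.74 (0.926 to 10.99), 1.93 (1.496 to 2.51), 1.21 (0.804 to 1.87), 1.38 (0.518 to 4.26) and 1.26 (0.586 to 2.92) in the same order of clusters, so that in cluster 1 alone the interval lay above 1. Irradiated + pilocarpine over non-irradiated nuclei gave 0.826 (0.501 to 1.30) and 0.770 (0.446 to 1.44) in clusters 0 and 1, and 0.411 (0.267 to 0.650), 0.336 (0.193 to 0.547) and 0.446 (0.233 to 0.875) in clusters 2, 4 and 15. Pigr itself took no part in the clustering. Clock genes were not left out of it, and Arntl and Pigr were both among the 10 leading genes of cluster 4.

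**Figure D3:**
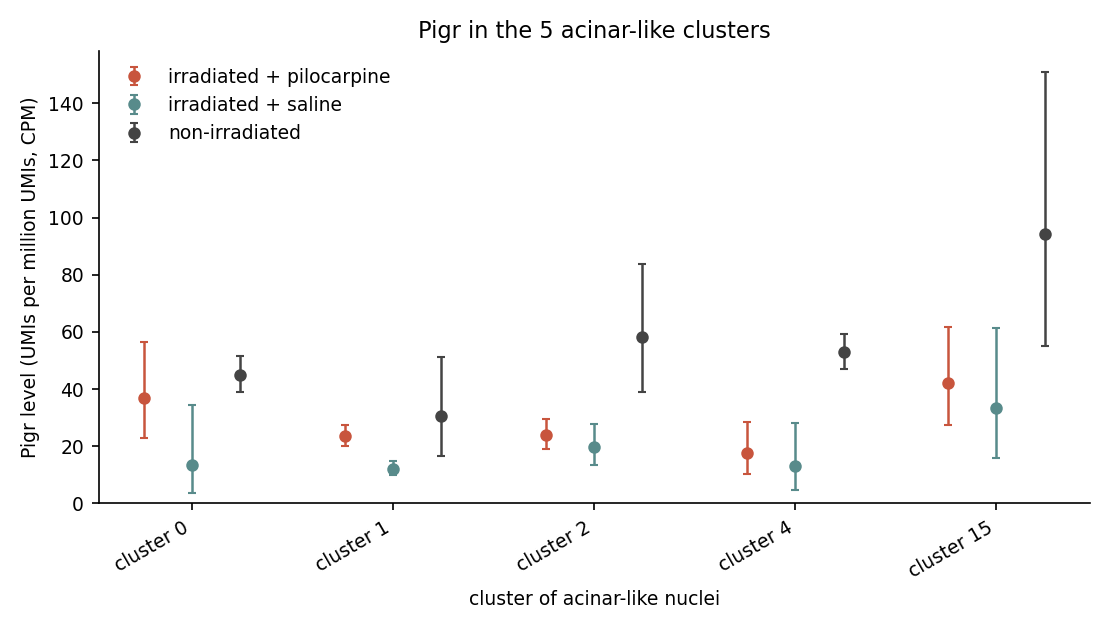
Pigr level in CPM in the 5 acinar-like clusters for the irradiated + pilocarpine, irradiated + saline and non-irradiated libraries, with exact Poisson 95% intervals for counting error. Non-irradiated nuclei were highest in every cluster, from 30.4 CPM in cluster 1 to 94.3 CPM in cluster 15, and the levels of irradiated + saline nuclei ran from 12.1 to 33.4 CPM.

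Pigr RNA in the non-irradiated library was concentrated in the few acinar-like nuclei that also held RNA of Arntl or Npas2, which encode the activating partners of the circadian clock. Such nuclei numbered 372 of 6327 (5.88%) and held 269 of the 576 Pigr UMIs (46.7%). Their Pigr level was 293 CPM (259 to 330), against 28.8 CPM (25.6 to 32.2) in the nuclei without these UMIs, a ratio of 10.2 (8.61 to 12.0). Pigr stood at 152 CPM (120 to 191) in the 233 nuclei with 1 such UMI and at 456 CPM (394 to 525) in the 139 nuclei with 2 or more. Median depth differed far less, at 2047.5 UMIs with and 1494 without. The ratio was above 1 in each acinar-like cluster of this library, at 7.78 (5.55 to 10.8), 14.5 (4.18 to 63.3), 27.2 (12.2 to 63.7), 11.5 (9.12 to 14.5) and 16.0 (5.43 to 52.8) in clusters 0, 1, 2, 4 and 15. Outside the acinar-like class it was 3.86 (2.53 to 5.96) in unnamed cluster 7 and 2.48 (1.63 to 3.92) in unnamed cluster 8, 3.77 (1.61 to 8.82) in ionocyte-like nuclei, and 2.31 (0.674 to 6.39) in duct-like nuclei. Myoepithelial-like nuclei with Arntl or Npas2 held 0 of 21 Pigr UMIs, which allows a ratio of up to 0.429.

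The irradiated libraries held few such nuclei. In the irradiated + pilocarpine library 62 acinar-like nuclei (1.33%) had a UMI of Arntl or Npas2 and held 8 Pigr UMIs, or 37.7 CPM (16.3 to 74.4), a ratio of 1.54 (0.660 to 3.08) over the rest. Of the 8, 4 lay in cluster 15, where the ratio was 5.69 (1.43 to 16.8). In clusters 0, 1, 2 and 4, with 1 of the 8 each, the intervals included 1. In the irradiated + saline library 24 acinar-like nuclei with a UMI of Arntl or Npas2 (0.684%) held 0 Pigr UMIs, which allows a ratio of up to 2.83. Acinar-like Arntl was 3.04 CPM in irradiated + pilocarpine, 1.01 CPM in irradiated + saline and 33.1 CPM in non-irradiated nuclei, and Npas2 was 2.32, 1.56 and 34.3 CPM. Per2, which encodes a repressor of the clock, ran the opposite way, at 78.6, 115 and 17.3 CPM. The hour of collection is not among the labels, so the state of the clock and the treatment cannot be told apart in these libraries. With the Arntl or Npas2 nuclei left out, acinar-like Pigr was 0.489 of the non-irradiated level in irradiated + saline nuclei (0.400 to 0.596), 1.74 times the irradiated + saline level in irradiated + pilocarpine nuclei (1.43 to 2.13), and 0.850 of the non-irradiated level in irradiated + pilocarpine nuclei (0.723 to 1.00). Irradiated + pilocarpine and non-irradiated nuclei were then close, and irradiated + saline nuclei stayed lowest. The non-irradiated level left, 28.8 CPM, was near that of the fibroblast-like nuclei of this library, at 27.1 CPM (17.7 to 39.7). How much of the Pigr in these remaining nuclei was free RNA was not tested.

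**Figure D4:**
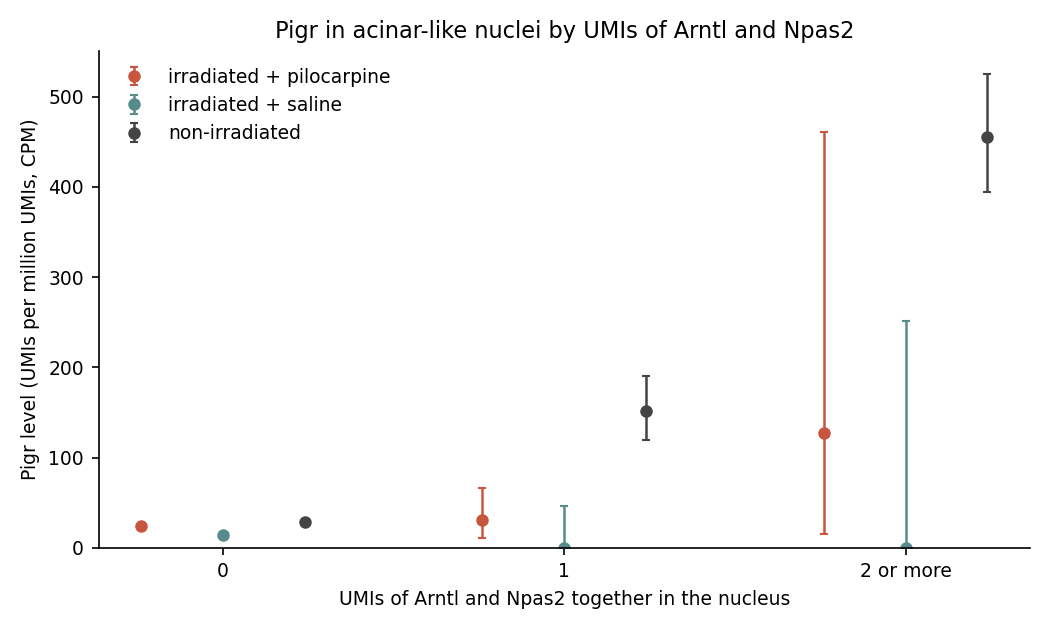
Pigr level in CPM in acinar-like nuclei with 0, 1 or at least 2 UMIs of Arntl and Npas2 together, for the irradiated + pilocarpine, irradiated + saline and non-irradiated libraries, with exact Poisson 95% intervals for counting error. The non-irradiated level was 28.8 CPM without such UMIs, 152 CPM with 1 and 456 CPM with 2 or more.

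Pigr was set beside all other genes in these nuclei. Among 8955 genes with at least 100 UMIs in non-irradiated acinar-like nuclei, ranked by the log2 ratio of CPM + 5 between nuclei with and without a UMI of Arntl or Npas2, Pigr came first, with 10.2 (8.61 to 12.0). The second, 2310057J18Rik, had a ratio of 6.45 (5.50 to 7.55). Rsad2, an interferon-induced antiviral gene, had 7.58 (5.61 to 10.2), an interval that overlapped that of Pigr. Of its UMIs in this library, 168 lay in the 87 nuclei of cluster 15 and 27 in the 6240 other acinar-like nuclei. The Rsad2 ratio thus rests largely on few nuclei, which its counting interval does not cover. Mup5, of the major urinary proteins, had 5.07 and Rhoj, a small GTPase, 2.84. Nfil3, a clock output, had 1.78 and Clock, the usual partner of Arntl, 1.24. Mucl2, an abundant secreted product of acinar cells, had 0.9796. Read the other way, the 394 non-irradiated acinar-like nuclei with a Pigr UMI had 13.3 times the Npas2 level (10.9 to 16.3) and 10.8 times the Arntl level (8.76 to 13.2) of the 5933 nuclei without, the first and second of 8956 genes. These nuclei were examined because the link had been seen in the data, and the ranks are a description. In irradiated + pilocarpine acinar-like nuclei, those with a Pigr UMI had 3.70 times (1.34 to 8.97) the Npas2 level of those without, from 7 UMIs. For Arntl the ratio was 0.314 (0.00775 to 1.86), from 1 UMI. Irradiated + saline acinar-like nuclei with a Pigr UMI held 0 UMIs of either gene.

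Interferon is a known inducer of Pigr, and acinar-like cluster 15 was defined by interferon-induced genes, led by Rsad2, Cmpk2, Gbp6 and Usp18. Its 196, 100 and 87 nuclei in the irradiated + pilocarpine, irradiated + saline and non-irradiated libraries had Pigr at 42.0, 33.4 and 94.3 CPM, against 23.8, 13.4 and 49.0 CPM in the other acinar-like nuclei. The ratios were 1.77 (1.13 to 2.64), 2.50 (1.17 to 4.73) and 1.92 (1.11 to 3.11). These rest on 26, 10 and 17 Pigr UMIs in the cluster, of which 4, 0 and 11 lay in the 5, 0 and 8 nuclei with a UMI of Arntl or Npas2. A list of 17 interferon-gamma-induced genes, chosen after the data had been seen, was 5.08, 4.17 and 5.01 times as high in the cluster when summed. That was built in, since most interferon-induced genes took part in the clustering. Gbp2 and Gbp6, of the list, were among the 10 leading genes of the cluster. Over all acinar-like nuclei, those with a Pigr UMI had 1.01 (0.907 to 1.12), 1.05 (0.869 to 1.25) and 0.858 (0.720 to 1.02) times the summed level of the list of those without, with an interval that included 1 in each library. Within cluster 15 the same ratio was 0.762 (0.627 to 0.919), 0.495 (0.260 to 0.864) and 1.39 (0.830 to 2.21), below 1 in both irradiated libraries. The nuclei with a Pigr UMI numbered only 22, 9 and 10 there. The intervals cover counting error and not differences between so few nuclei, so no conclusion is drawn from these ratios. Genes were also ranked by CPM + 5 in nuclei with a Pigr UMI over those without, in all named classes other than acinar-like. Gbp2, Igtp, Gbp5, Mup5 and Gbp6 led 9179 genes in the irradiated + pilocarpine library, where 102 nuclei had a Pigr UMI. All but Mup5 are on the list. The 5 leading genes of the other libraries held none of the list. Several classes are pooled there, and the cause was not tested.

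Known inducers of Pigr and their signalling genes, a list of 20, showed no common shift. Their median log2 ratio in all nuclei was 0.06 between irradiated + saline and non-irradiated, 0.08 between irradiated + pilocarpine and irradiated + saline, and 0.12 between irradiated + pilocarpine and non-irradiated nuclei, beside 0.07, 0.02 and 0.07 over all genes. Of the 20, 1 was past 2-fold in all nuclei and 1 in acinar-like nuclei. Both calls were higher in irradiated + pilocarpine than in non-irradiated nuclei, the opposite direction to Pigr. Of all genes, 1.39% and 1.25% were higher there. Irf1, which carries the interferon signal to the Pigr gene, was picked after values were seen. It stood at 52.9 CPM in irradiated + pilocarpine, 38.3 CPM in irradiated + saline and 63.0 CPM in non-irradiated acinar-like nuclei, in the same order of libraries as Pigr but with smaller ratios. Usf1, an E-box binding factor, had 33.1, 30.3 and 39.2 CPM in these nuclei, and Usf2, its relative, 49.4, 50.4 and 47.6 CPM.

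Of 23 genes of receptor transcytosis, none was past 2-fold in all nuclei in any of the 3 comparisons. Their medians were 0.01, -0.06 and -0.07 in all nuclei for irradiated + saline against non-irradiated, irradiated + pilocarpine against irradiated + saline, and irradiated + pilocarpine against non-irradiated. In acinar-like nuclei the medians were -0.09, 0.06 and -0.03, beside -0.03, 0.05 and 0.02 over all genes. Rab17, an epithelial GTPase known from this transport, was the 1 gene past 2-fold, lower in irradiated + saline than in non-irradiated acinar-like nuclei with a log2 ratio of -1.41. It stood at 34.8 CPM in irradiated + pilocarpine, 19.8 CPM in irradiated + saline and 54.4 CPM in non-irradiated acinar-like nuclei, from 436, 216 and 630 UMIs. Its order across the libraries was that of Pigr, with ratios of 0.364 (0.311 to 0.426), 1.76 (1.49 to 2.08) and 0.641 (0.566 to 0.725) in the order of comparisons above. Over all nuclei the order differed, at 38.7, 41.7 and 60.5 CPM. Exoc4, a subunit of the exocyst that tethers vesicles, ran otherwise in acinar-like nuclei, at 1138, 1342 and 701 CPM, and Mal2, which is known to guide transcytosis to the apical face in human liver cells, stood at 16.5, 30.6 and 24.3 CPM in all nuclei.

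The cargo genes were rare in all 3 libraries and did not have the order of Pigr. Igha had 69 UMIs or 2.07 CPM (1.61 to 2.62) in the irradiated + pilocarpine library, 149 UMIs or 5.11 CPM (4.32 to 5.996) in the irradiated + saline library and 123 UMIs or 4.81 CPM (3.998 to 5.74) in the non-irradiated library. Igkc had 43 UMIs or 1.29 CPM (0.933 to 1.74), 195 UMIs or 6.68 CPM (5.78 to 7.69) and 89 UMIs or 3.48 CPM (2.80 to 4.28) in the same order. Jchain had 35 UMIs or 1.05 CPM (0.731 to 1.46), 56 UMIs or 1.92 CPM (1.45 to 2.49) and 41 UMIs or 1.60 CPM (1.15 to 2.18). All 3 were lowest in irradiated + pilocarpine nuclei, and the Jchain interval there overlapped both others. Igha stood at 0.405 of the irradiated + saline level in irradiated + pilocarpine nuclei (0.300 to 0.542), Igkc at 0.193 (0.135 to 0.270) and Jchain at 0.547 (0.348 to 0.849). Between irradiated + saline and non-irradiated nuclei the ratios were 1.06 (0.830 to 1.36) for Igha, 1.92 (1.49 to 2.50) for Igkc and 1.197 (0.786 to 1.84) for Jchain. In such bulk sums, fewer plasma cells and less RNA per cell cannot be told apart.

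Much of these differences sat in a few nuclei. UMIs of the 3 cargo genes were found in 91 irradiated + pilocarpine nuclei (1.09%), 148 irradiated + saline nuclei (1.72%) and 172 non-irradiated nuclei (1.62%), most with a single UMI. Those with at least 5 numbered 6, 9 and 6 and held 32.0%, 62.3% and 27.3% of the UMIs of the 3 genes. The richest was an irradiated + saline nucleus with 80 UMIs of Igkc, 35 of Igha and 5 of Jchain among 5860 in all, in unnamed cluster 7, and the next, of the same library, held 28, 25 and 7. Cluster 7 thus had 1, 89 and 2 Igkc UMIs in irradiated + pilocarpine, irradiated + saline and non-irradiated nuclei. Without unnamed clusters 7 and 8, Igkc had a ratio of 0.907 (0.606 to 1.36) between irradiated + saline and non-irradiated nuclei, and 0.544 (0.332 to 0.874) between irradiated + pilocarpine and irradiated + saline nuclei. Igha had 0.710 (0.495 to 1.02) and 0.559 (0.352 to 0.873) without them, and Jchain 0.557 (0.290 to 1.03) in the second comparison. The direction between irradiated + pilocarpine and irradiated + saline nuclei was therefore the same for Igha, Igkc and Jchain without these clusters, and the higher Igkc of irradiated + saline over non-irradiated nuclei was not.

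**Figure D5:**
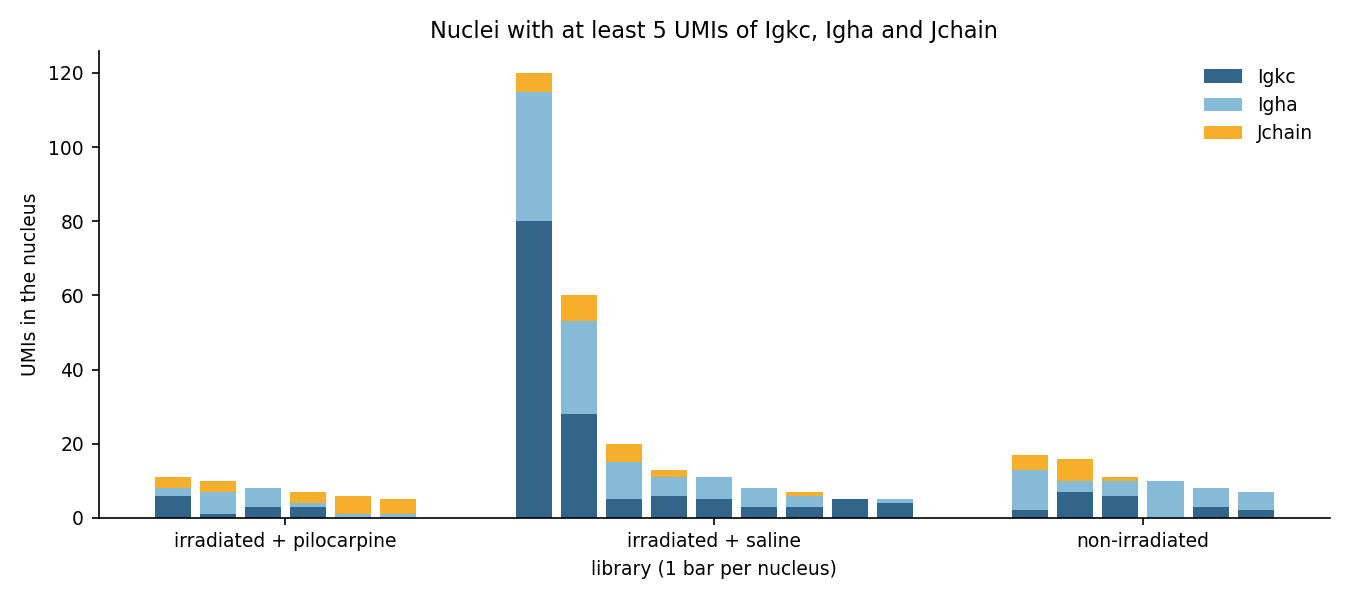
UMIs of Igkc, Igha and Jchain in each nucleus with at least 5 of them together, 1 bar per nucleus, for the irradiated + pilocarpine, irradiated + saline and non-irradiated libraries (6, 9 and 6 nuclei). The tallest bars, of 120 and 60 UMIs, are both of the irradiated + saline library.

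Some of the 21 nuclei rich in these UMIs carried plasma cell RNA. Pou2af1, a transcriptional coactivator of B lineage cells, stood at 31.5 CPM in the 21 and 0.103 CPM in the 27612 other nuclei (24 and 9 UMIs). Irf4, a regulator of plasma cell fate, stood at 9.18 and 0.309 CPM, and Prdm1, which encodes Blimp-1, at 9.18 and 2.83 CPM. Pou2af1 UMIs were found in 11 of the 21 nuclei, and those of Irf4 and Prdm1 in 4 each. The richest nucleus, with 120 cargo UMIs, held 0 of all 3. Mzb1, a chaperone of antibody-secreting cells, had 1 UMI in the 21 nuclei, and Tnfrsf17 and Fcrl5, both receptors of plasma cells, had 0. Sdc1, another plasma cell gene, stood at 1.31 CPM (0.0332 to 7.31) in the 21 and 3.01 CPM (2.66 to 3.40) in the other nuclei. Plasma cell genes that the acinar cells also use were at similar levels in both, with Derl3 at 344 and 376 CPM and Xbp1 at 294 and 293 CPM. Mucl2 stood at 34741 and 42749 CPM, so these nuclei also held RNA of acinar cells. They belonged to clusters 7, 8, 14 and 16, none of which was plasma cell-like, and some had up to 134874 UMIs. Whether they hold more than 1 nucleus was not tested. T or NK-like nuclei had 2, 9 and 8 Igha UMIs in irradiated + pilocarpine, irradiated + saline and non-irradiated nuclei, and acinar-like nuclei 13, 16 and 38. Those of the T or NK-like class came from 1, 5 and 3 nuclei, of 87, 80 and 38, with up to 5 UMIs in 1 nucleus. Barcodes under 500 genes gave Igha 7.28, 17.2 and 1.18 CPM, and Igkc 0, 17.2 and 7.08 CPM. A Pigr UMI was found in 20.9%, 8.11% and 15.7% of the nuclei with a cargo UMI, against 5.79%, 2.57% and 6.95% of all nuclei, and their median depth was also higher, at 4120, 3144 and 2169.5 UMIs against 2048, 2113 and 1536.

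Igha made up a smaller share of heavy chain constant UMIs in both irradiated libraries. It held 41.1% (33.6% to 48.9%) of 168 such UMIs in irradiated + pilocarpine, 50.7% (44.8% to 56.5%) of 294 in irradiated + saline, and 72.8% (65.4% to 79.3%) of 169 in non-irradiated nuclei. Ighm, of IgM, which the human receptor also carries when it holds the J chain, held 51.2%, 35.0% and 21.9%, or 2.58, 3.53 and 1.45 CPM from 86, 103 and 37 UMIs. Igkc held 57.3%, 75.3% and 70.6% of the light chain constant UMIs. A single nucleus can hold many such UMIs of 1 class, as did a macrophage-like irradiated + saline nucleus with 17 UMIs of Ighg2b, so these shares are less precise than their counting intervals. Of 348 variable region genes, 7, 12 and 8 were detected with 7, 16 and 9 UMIs. The most frequent had 1 UMI each in irradiated + pilocarpine nuclei (Ighv1-18, Ighv1-69 and Ighv10-1) and 2 each in irradiated + saline nuclei (Ighv1-55, Ighv2-2 and Igkv20-101-2). In non-irradiated nuclei Iglv1 had 2 and Ighv1-24 and Ighv1-55 had 1.

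The remaining lists gave little beside this. Among 11 other immunoglobulin constant genes, 16 plasma cell genes and 9 B cell genes, none was past 2-fold in all nuclei in any comparison, and 6, 15 and 7 of them were measured in irradiated + saline against non-irradiated nuclei. Their medians there were 0.43, 0.03 and 0.01. Of 14 homing and survival genes, 10 were measured with a median of 0.44 in that comparison, 0.14 between irradiated + pilocarpine and irradiated + saline, and 0.42 between irradiated + pilocarpine and non-irradiated nuclei. Vcam1, an adhesion molecule of vessels that lymphocytes bind, was the 1 past 2-fold, at 8.78 CPM in irradiated + pilocarpine, 5.55 CPM in irradiated + saline and 2.43 CPM in non-irradiated nuclei (log2 ratio 1.51 between the first and the last). Ccl28, the chemokine that draws IgA plasma cells to glands, stood at 396, 472 and 295 CPM in acinar-like nuclei. Of 4 other immunoglobulin receptors none was past 2-fold in all nuclei or in acinar-like nuclei, and Tfrc, the transferrin receptor, which in humans can also bind IgA, stood at 178, 144 and 195 CPM in acinar-like nuclei. Among 11 other defence proteins of saliva, Lyz2, a lysozyme, was past 2-fold between irradiated + pilocarpine and non-irradiated nuclei (log2 ratio 1.12), at 4.05, 3.26 and 1.33 CPM, and Lpo, the salivary peroxidase, stood at 612, 638 and 465 CPM in acinar-like nuclei. In all, 0 of 94 measured list genes were past 2-fold between irradiated + saline and non-irradiated nuclei, 0 of 93 between irradiated + pilocarpine and irradiated + saline, and 3 of 91 between irradiated + pilocarpine and non-irradiated. In acinar-like nuclei these were 1 of 68, 0 of 70 and 2 of 70, with Lyz2 among the last (log2 ratio 1.18). Past 1.5-fold in either direction were 12, 5 and 10 list genes in all nuclei, in the same order of comparisons, where 10.1%, 4.60% and 8.35% of all measured genes were. In acinar-like nuclei they were 7, 2 and 8, where 11.2%, 4.32% and 9.99% of all measured genes were. With a pseudocount of 10 CPM, 1 list gene was past 2-fold in the third comparison in all nuclei and 1 in acinar-like nuclei, beside 0.261% and 0.324% of all measured genes.

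Genes whose level most resembled that of Pigr over 38 combinations of class and library were Tmem234 (Pearson r 0.763), Rap1gap (0.738), Rsrp1 (0.733), Auh (0.715) and Oit1 (0.709), among 11941 genes. Points of a library share its depth and free RNA, and those of a class its cells, so r is a description. Tmem234 stood at 187, 149 and 286 CPM in irradiated + pilocarpine, irradiated + saline and non-irradiated acinar-like nuclei, and Rap1gap, which encodes an inhibitor of the GTPase Rap1, at 867, 561 and 1162 CPM. Both had the library order of Pigr with smaller ratios. Arntl had r 0.475 and Npas2 0.379 over the same points, which hold sums and not single nuclei. Genes most like Igkc were Prkcq (0.670), of T cell signalling, Slc44a2, Arhgap4, Insyn2b and Zfp605, and of these only Prkcq (0.518) was among the 5 with classes of at least 100 nuclei. Next to Pigr on chromosome 1, Fcamr, a receptor for IgA and IgM, had 7, 7 and 11 UMIs in the 3 libraries in the order used throughout, Fcmr, a receptor for IgM, 0, 0 and 2, Il24 1, 0 and 0, and Il20 0 in each. Pfkfb2, a regulator of glycolysis, stood at 75.7, 81.0 and 73.4 CPM in acinar-like nuclei. AA986860, a gene between Fcamr and Pfkfb2, had 24, 34 and 21 UMIs in acinar-like nuclei, and in all nuclei it stood at 10.6, 24.3 and 12.1 CPM, highest in irradiated + saline.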

How the data were processed

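Single-nucleus RNA was counted in 3 libraries, 1 per group, grouped by the treatment in the labels. The authors deposited raw counts of UMIs for each gene and barcode, from Cell Ranger 7.0.1 and GRCm38 per the submitters' processing notes. Per the labels' protocols, nuclei were released mechanically from frozen glands, sorted by flow cytometry after DAPI staining and run on a droplet kit that reads the end of transcripts. The annotation and the use of intronic reads are not given in the sources used here.

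Barcodes with at least 500 detected genes and at most 5% mitochondrial UMIs were kept, 27633 of 32511, with 88101885 of 90687012 UMIs. The 1536 to 1911 barcodes under the gene minimum in the irradiated libraries and 1425 in the non-irradiated one served as a view of free RNA. Scrublet (scanpy 1.11.5, 6% doublets expected) called 0 doublets and so did not work here, and doublets remain in the data. Nuclei of all libraries were clustered together without integration on 3000 variable genes (members, genes of the lists, and mitochondrial, ribosomal, immunoglobulin and sex-linked genes left out, clock genes and most interferon-induced genes not), with 30 principal components and 15 neighbours, and partitioned at resolution 1 by leidenalg 0.10.2. A cluster got the name of a cell type where at least 3 of that type's markers were detected, their median log2 level was at least 0.9 of the highest cluster's, a limit set after the data had been seen, and its 10 leading genes held no more markers of another type. The study's own names may differ.

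UMIs were summed per library and class. A gene counted as measured with 10 or more UMIs over a pair of libraries and was called past 2-fold on log2(CPM + 1). With 1 library a group no test was run. Shares of nuclei were also taken after thinning to 800 UMIs, which left out 1593 shallower nuclei. The ranking beside Arntl and Npas2 used genes with at least 100 UMIs. Likeness to Pigr or Igkc is Pearson's r of log2(CPM + 1) over classes of at least 50 nuclei, for genes with at least 200 UMIs. The steps were tested on simulated data. Python 3.11.15, numpy 2.4.6, scipy 1.17.1, pandas 2.3.3 and matplotlib 3.10.9 were used.

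The members and lists were chosen with earlier results of these data known. By rule the text names the 4 members, the 2 genes with the largest ratio past the fold in each list, the 5 genes most like Pigr and Igkc, the 3 most frequent variable genes of a library and the nearest neighbours of Pigr. Clock genes, interferon-gamma-induced genes, the nuclei with Arntl or Npas2 UMIs and any other named gene were chosen after values were seen. A gene that this rule would name is not reported here. Alternatives covered the filters, pseudocount, depth, doublets, free RNA, clustering and left-out nuclei.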

Additional observations from a re-analysis of the deposited data

How the results depend on the processing

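Pigr in acinar-like nuclei was 35 of 42 times within the counting interval of the reported log2 ratio. The exceptions, for irradiated + saline against non-irradiated, irradiated + pilocarpine against irradiated + saline, and irradiated + pilocarpine against non-irradiated, in that order, are as follows. A pseudocount of 10 CPM gave -1.32 in the first and -0.78 in the third, and subtracted free RNA -1.30, -0.50 and -1.81, the second with its sign turned. Leaving out nuclei with Arntl or Npas2 UMIs, an alternative chosen after seeing the data, gave -0.98 in the first and -0.23 in the third. In duct-like nuclei, 30 of 33 values stayed within, the exceptions being -1.55 in the first with the pseudocount, and 0.93 and -1.80 in the second and the third with free RNA subtracted. In all nuclei the pseudocount gave Pigr -1.50, 0.60 and -0.90, thinning to 800 UMIs 1.28 and -0.79 in the second and the third, the mean of single nuclei -0.88 in the third, and leaving out clusters 7 and 8, also chosen after seeing the data, -0.97 in the third.

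Jchain left its interval once, at -0.11 in the second comparison with the pseudocount. Igha in the first comparison, 0.07 as reported, stood at -0.30 with the mean of single nuclei, 0.48 when thinned, -0.46 without the top 8% of doublet scores, -0.50 without nuclei of 10 or more immunoglobulin UMIs and -0.38 without clusters 7 and 8. In the second it stood at -0.32 with the pseudocount, -0.68 with the mean, -0.45 without top doublet scores, -0.24 without immunoglobulin-rich nuclei and -0.57 without both clusters, and in the third at -0.30 with the pseudocount. Igkc in the first, 0.78 as reported, stood at 0.31 with the pseudocount and turned sign to -0.28, -0.18 and -0.10 without top doublet scores, immunoglobulin-rich nuclei or both clusters. In the second it stood at -0.56 with the pseudocount, -1.18 with the mean, and -0.72, -0.73 and -0.57 under the same 3 settings, and in the third at -0.26 with the pseudocount. The Igkc excess of irradiated + saline over non-irradiated nuclei thus rests on few nuclei.

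List genes past 1.5-fold numbered 12, 5 and 10 in all nuclei and 7, 2 and 8 in acinar-like nuclei, and with the pseudocount 1 in the third comparison in each. Of the 5 genes most like Pigr, 2 were also found with classes of at least 100 nuclei, and of the 5 most like Igkc, 1 was, an alternative added after seeing the data. The filters, Leiden resolutions 0.5 and 2, each library clustered alone, equal cluster weights and cluster 10 counted as acinar-like (the last 2 chosen after seeing the data) moved no Pigr value beyond its interval. A larger pseudocount shrinks the ratios of low genes by construction, and the cause of the other shifts was not tested. No paired analysis was possible because there is only 1 library in a group. The Jchain, Igha and Igkc values rest on 35 to 195 UMIs per library.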
